A study of Homo sapiens with 2 samples.

Results

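SR proteins are splicing factors named for a tail rich in arginine and serine. Their front part binds short enhancer sequences in exons, and the tail recruits the small nuclear RNPs and U2AF that recognise splice sites. Kinases and phosphatases acting on the tail control where SR proteins lie in the cell and how they act. Their own mRNAs are known for unproductive splicing, in which an extra exon or a retained intron brings an early stop codon and the mRNA is degraded by nonsense-mediated decay. Probe sets of 1 gene need not read the same transcript form.

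The genes were taken from a fixed list of 10 SRSF symbols, by the gene annotation of the array, with older symbols updated through the Entrez identifier. Of the 10, 8 had at least 1 probe set that carries a single gene symbol: SRSF1, SRSF3, SRSF4, SRSF5, SRSF6, SRSF7, SRSF10 and SRSF11. They hold 37 probe sets, out of 54675 on the array and 19775 named genes. SRSF2 and SRSF9 have no value here. Each of the 3 probe sets of SRSF2 is also annotated to MIR636, a microRNA gene that lies inside SRSF2, and both probe sets of SRSF9 also carry GATC, a gene that overlaps it.

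The RNA came from 293T, a human embryonic kidney line that carries the SV40 large T antigen, and was read on 2 Affymetrix arrays. For the miR-941 array, cells were transfected with synthetic miR-941 and their RNA was pulled down through Ago2, an Argonaute protein, which carries microRNAs to mRNAs. Cells of the control array received a scrambled oligonucleotide at the same 30 nmol/l. The title of the control sample names an Ago2 precipitate, but its antibody entry gives nonimmune IgG beads. If that entry holds, oligonucleotide and antibody cannot be told apart. Each group has 1 array and so allows no test, and every difference below compares these 2 arrays alone. There is no array of input RNA among them, so recovery with the beads and mRNA level in the cells cannot be told apart, nor can fewer cells holding an mRNA and less of it per cell.

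The transfected microRNA is shown here because it is the agent that separates the groups. The capitals mark its seed, bases 2 to 8, the part that pairs with target mRNAs.

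hsa-miR-941: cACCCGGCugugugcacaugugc

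This is the RefSeq sequence, which is the same for all 5 copies of the gene on chromosome 20 of GRCh38.p14. The first copy encodes it at chr20:63919495-63919517 on the plus strand. A full match to the seed in a DNA copy of an mRNA reads GCCGGGT. No other of the 2370 mature microRNA names in the RefSeq table shares this seed. Matches in the mRNAs of the SR genes were not analysed here.

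Values are log2 expression values per probe set, and a difference is the miR-941 value minus the control value. A probe set counted as detected if its mean over both arrays exceeded 0.92. This held for 28 of the 37 SR probe sets, and each of the 8 genes had at least 2 of them. The detected ones ran from 1.02 to 9.71 (control) and from 1.02 to 9.83 (miR-941). The 9 others read at most 1.02 (control) and 0.76 (miR-941). Closest to the limit were SRSF3 232392_at, which read 1.02 on both arrays and was kept, and SRSF1 229246_at, which had a mean of 0.89 and was not. Pairs of values below give the control array first and the miR-941 array second.

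Across the 2 arrays as a whole, 21.6% of probe sets had identical values, and the array medians were 0.92 (control) and 0.98 (miR-941). Of 8 kidney, neural and filament genes known from the parent of this line, 7 were detected, among them VIM and NEFL. Of all 19775 named genes 13144 were detected. PAX2 was detected only near the limit (0.86 control and 1.23 miR-941), and KRT8 was not detected (mean 0.89). Of 8 markers of other cell types, 2 were detected: COL1A1, and HBB, whose brightest probe set read 6.95 and 7.54. The 5' control probe set of the actin mRNA had a difference of -0.66, against -0.04 for its 3' control. For GAPDH the same controls had -0.19 and 0.05. Where the SR probe sets lie along their mRNAs is not given in the tables used here, and the part of these values in the differences below was not tested.

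**Figure D1:**
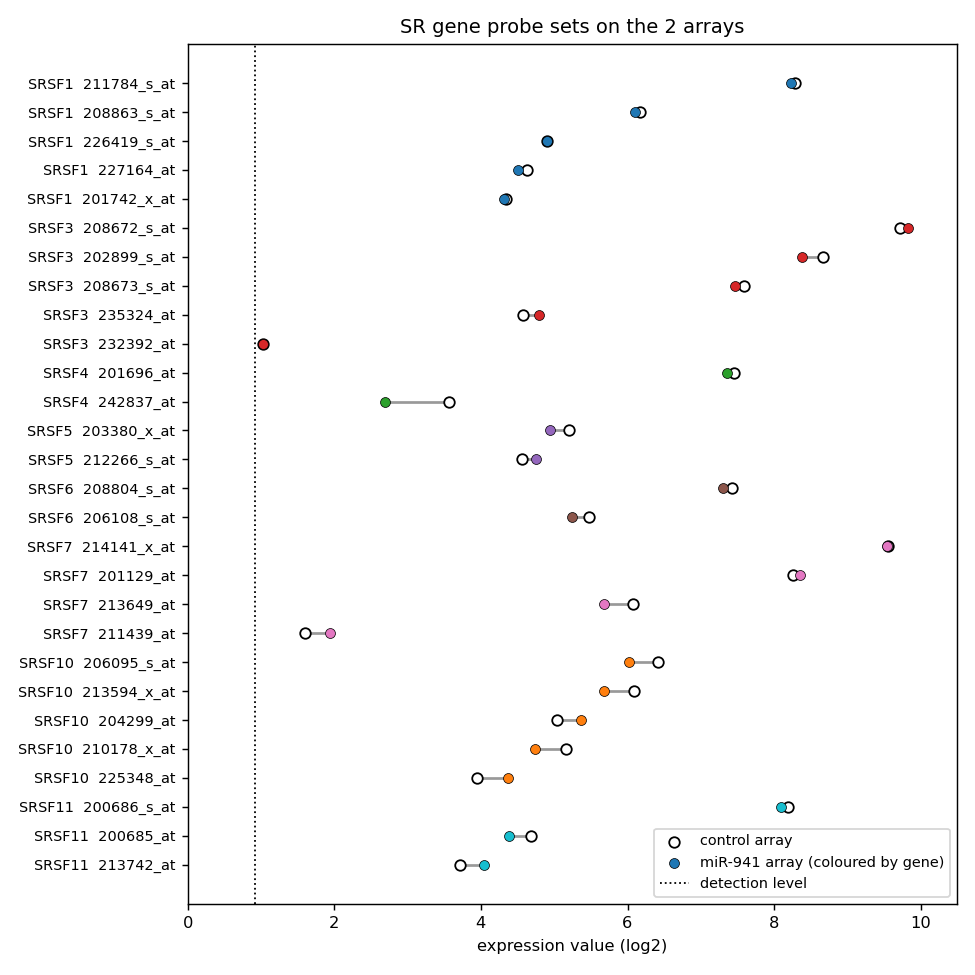
Expression values (log2, horizontal axis) of the 28 detected SR gene probe sets, with the control array as open circles, the miR-941 array as filled circles coloured by gene, and the detection level of 0.92 dotted. The pair lies close together for most probe sets; the widest gap is that of SRSF4 242837_at, from 3.57 (control) to 2.69 (miR-941).

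The SR genes differed little between the arrays, and most read slightly lower on the miR-941 array. With each gene represented by its brightest probe set, 7 of the 8 were lower on the miR-941 array and SRSF3 was higher. The differences ran from -0.40 (SRSF10) to 0.11 (SRSF3), with a median of -0.10, where the median of all 13144 detected genes was 0.00. None of the 8 reached 1.5-fold, a size that 5.79% of all detected genes reached. That share was not matched for level, and differences scatter more widely among dim probe sets. Of all detected genes 42.4% were lower on the miR-941 array, 46.3% were higher and the rest were equal. No SR gene was equal on its brightest probe set, so the equal values among all genes widen the contrast. The share lower was 57.0% once each array's median was subtracted, 48.2% with quantile normalisation and 49.95% with the loess trend removed. Under each of these scalings 7 of the 8 SR genes were lower. Without scaling, 46.2% were lower among genes above the 75th percentile of level, where all 8 SR genes lie. The count rests on probe sets with the suffixes _s_at and _x_at, which may match several transcripts or genes. Without them 6 SR genes remained, 3 lower and 3 higher, with a median of -0.0035.

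Over the 28 detected probe sets, 18 (64.3%) were lower, 8 higher and 2 equal, against 43.4% lower among all 23302 detected probe sets with 1 symbol. The lower readings lay mostly on 1 kind of probe set. Of the 16 SR probe sets ending in _s_at or _x_at, 13 were lower (81.3%), 2 higher and 1 equal. Of the 12 ending in plain _at, 5 were lower, 6 higher and 1 equal. SRSF10 alone holds 3 of the 13 and 2 of the 6, and the comparison by suffix was chosen after its values were seen. Among all detected probe sets the share lower was 43.7% for _s_at and _x_at and 43.1% for the rest, which hold plain _at and other endings such as _a_at. Probe sets of 1 gene share their hybridisation, so these are not independent values. Only 1 of the 28 (3.57%) differed by 1.5-fold or more, where 7.66% of all detected probe sets did. No SR probe set reached 2-fold, a size that 0.841% of all detected probe sets reached. Neither of these shares was matched for level, and 25 of the 28 SR probe sets lie above the 75th percentile of level.

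**Figure D2:**
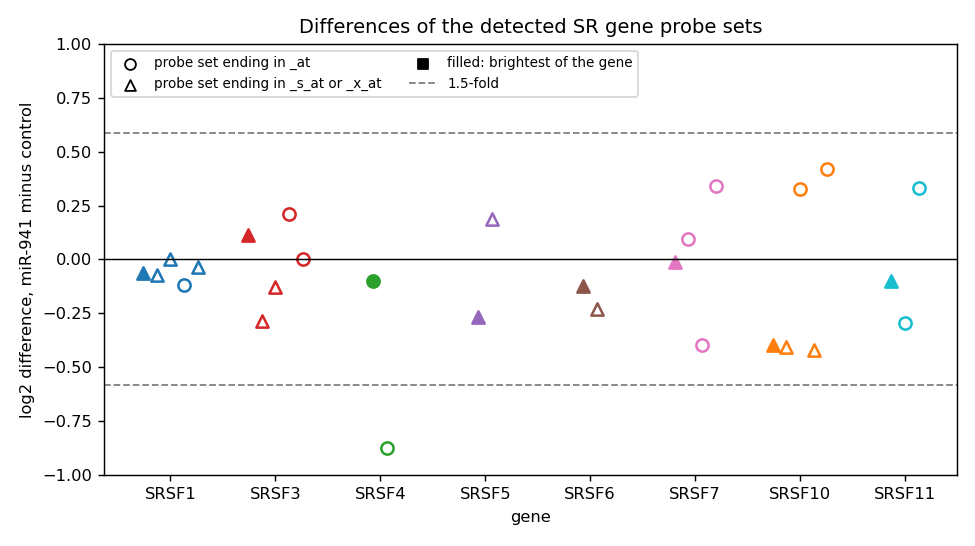
Log2 difference (miR-941 minus control, vertical axis) of each detected probe set, by gene; circles end in _at, triangles in _s_at or _x_at, filled symbols are the brightest probe set of the gene, and dashed lines mark 1.5-fold. In SRSF10 the 3 triangles lie near -0.40 and both circles above 0.30, while all 5 SRSF1 symbols lie between -0.12 and 0.00.

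SRSF1, first described as ASF/SF2, acts in constitutive and alternative splicing and moves between nucleus and cytoplasm. Its brightest probe set, 211784_s_at, read 8.29 and 8.23, a difference of -0.06. Another, 208863_s_at, read 6.17 and 6.10. The values were 4.63 and 4.51 for 227164_at, 4.35 and 4.31 for 201742_x_at, and 4.89 on both arrays for 226419_s_at. All 5 detected SRSF1 probe sets thus lay within 0.12 of each other in their difference, with 4 lower and 1 equal. Their SD was 0.04, where the SD of differences within a gene was 0.31 over 6102 genes with 2 or more detected probe sets. With only probe sets above the 75th percentile of level, where all 5 lie, it was 0.24 over 2900 genes. Of the 199 genes with 5 detected probe sets, 198 (SRSF1 included) had a range between probe sets at least as wide, a comparison not matched for level. The SRSF1 probe sets not detected differed by -0.26 (229246_at), -0.37 (239384_at) and 0.00 (201741_x_at).

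SRSF3 and SRSF7 both carry 1 RNA recognition domain and serve as adaptors of the export receptor NXF1. The brightest SRSF3 probe set, 208672_s_at, read 9.71 and 9.83, a difference of 0.11. Its next brightest, 202899_s_at, read 8.67 and 8.38, which is -0.29. Those values lie on opposite sides of 0 at levels far above detection. Of the other SRSF3 probe sets, 208673_s_at read 7.59 and 7.46, and 235324_at read 4.58 and 4.79. With 2 higher, 2 lower and 1 equal, the SRSF3 median was 0.00 ± 0.20 (SD over 5 probe sets).

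SRSF7 differs from SRSF3 by a zinc knuckle that also contacts RNA. Its brightest probe set, 214141_x_at, read 9.55 and 9.53. The next, 201129_at, read 8.26 and 8.36, a difference of 0.09. These brighter readings were nearly equal between the arrays. The largest SRSF7 difference was in 213649_at, which read 6.08 and 5.68 (-0.40). The dimmest detected one, 211439_at, went the other way, with 1.60 and 1.94 (0.34). Between them the range was 0.74, and 228 of 647 genes with 4 detected probe sets (35.2%) had a range at least as wide.

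SRSF4, SRSF5 and SRSF6 form a subfamily with a pair of RNA recognition domains and a long arginine-serine tail. SRSF4 held the widest difference of any SR probe set: 242837_at read 3.57 and 2.69, a difference of -0.88 (0.54-fold). The brightest SRSF4 probe set, 201696_at, read 7.45 and 7.35, which is -0.10. Both were lower, but by unequal amounts, 0.78 apart. A range that wide was found in 244 of the 3525 genes with 2 detected probe sets (6.92%). The mean of 242837_at, 3.13, is below the 75th percentile of level (3.37), and the SD of differences within a gene was 0.31 over all detected probe sets and 0.24 above that level.

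SRSF6 was lower on both of its probe sets, with 7.43 and 7.31 for 208804_s_at (-0.12) and 5.48 and 5.25 for 206108_s_at (-0.23). Its range of 0.11 was narrower than the median of 0.26 for genes with 2 detected probe sets. SRSF5, first described in regenerating liver, had probe sets on either side of 0. Of these, 203380_x_at read 5.21 and 4.94 (-0.27), while 212266_s_at read 4.56 and 4.75 (0.19). Their levels allow no choice between them, so SRSF5 has no settled direction on these arrays.

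SRSF10, also called SRp38, is an atypical SR protein that turns into a repressor of splicing when it is dephosphorylated in mitosis or after heat shock. On its brightest probe set, 206095_s_at, it read 6.41 and 6.02, a difference of -0.40. The _x_at probe sets gave nearly the same difference, with 6.09 and 5.69 for 213594_x_at (-0.41) and 5.16 and 4.74 for 210178_x_at (-0.42). The plain _at probe sets went the other way. Of these, 204299_at read 5.04 and 5.37 (0.33), and 225348_at read 3.95 and 4.37 (0.42). SRSF10 therefore read lower on 3 probe sets and higher on 2, and its direction turns to 0.33 when _s_at and _x_at probe sets are left out.

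The means of the SRSF10 classes were 0.37 for plain _at and -0.41 for the others, a gap of 0.78. By the array annotation, 206095_s_at and 204299_at were designed on different RefSeq transcripts, and both transcripts are listed under SRSF10 in the RefSeq gene table. The comparison by suffix was chosen after these values were seen. Among 346 genes with at least 2 detected probe sets of each class, 14 (4.05%) had every probe set of one class higher and every one of the other lower. In that count the class of plain _at also took in other endings such as _a_at. SRSF3 was the only other SR gene with enough probe sets to be counted, and was not among the 14. By range alone SRSF10 did not stand out: of the 199 genes with 5 detected probe sets, 59 (29.6%) had a range of 0.84 or more.

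SRSF11, known as p54, carries an arginine-serine domain and is counted with the less typical family members. Its brightest probe set, 200686_s_at, read 8.19 and 8.09 (-0.10). The others were 200685_at, with 4.68 and 4.38 (-0.30), and 213742_at, with 3.71 and 4.05 (0.33). Here the opposite signs fell within plain _at probe sets, so the split seen in SRSF10 by suffix was not present. Of 1604 genes with 3 detected probe sets, 468 (29.2%) had a range as wide as the 0.63 of SRSF11.

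**Figure D3:**
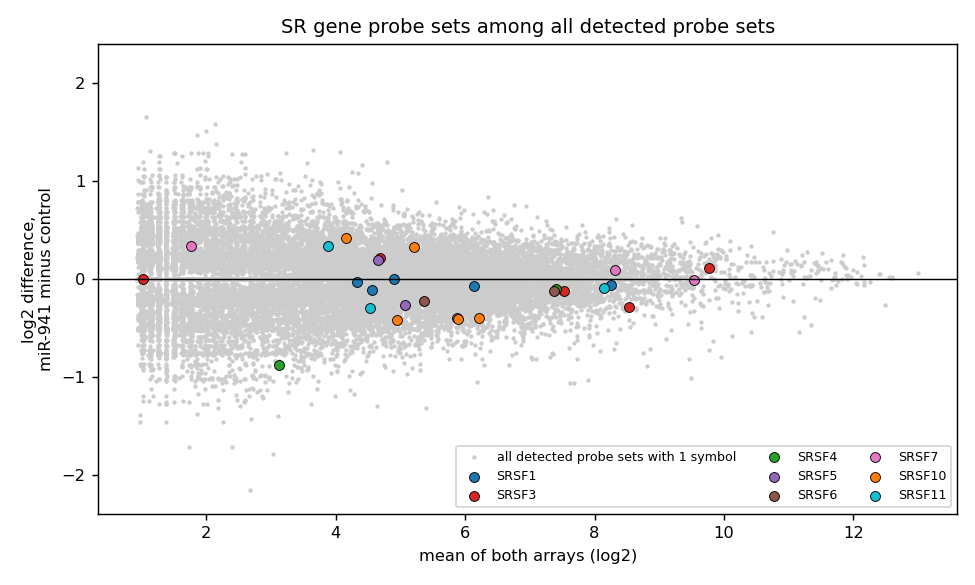
Log2 difference (miR-941 minus control, vertical axis) against the mean of both arrays (log2, horizontal axis) for all 23302 detected probe sets with 1 symbol in grey and the 28 SR gene probe sets coloured by gene. The SR points lie inside the grey cloud, whose scatter narrows from dim to bright probe sets; SRSF4 242837_at, at a mean of 3.13 and a difference of -0.88, is the lowest of them.

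Disagreement in direction was frequent in SR genes and in genes at large. In 5 of the 8 SR genes (62.5%) detected probe sets lay on both sides of 0: SRSF3, SRSF5, SRSF7, SRSF10 and SRSF11. Among all 6102 genes with 2 or more detected probe sets 46.3% did. With only probe sets above the 75th percentile of level, the count was 5 of 7 SR genes against 43.4% of all such genes, so the disagreement was not limited to dim readings. Neither comparison was matched for the number of probe sets per gene, and more probe sets give more room for both signs. Of the 6102 genes, 3525 had 2 detected probe sets, while the SR genes had from 2 to 5. SRSF1, SRSF4 and SRSF6 had no detected probe set higher on the miR-941 array, except that the highest SRSF1 probe set went from 0.00 to 0.03 under quantile normalisation and 0.02 with the loess trend removed. Pooled over the 8 genes, the SD of differences within a gene was 0.30, and it was 0.31 for all genes.

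**Figure D4:**
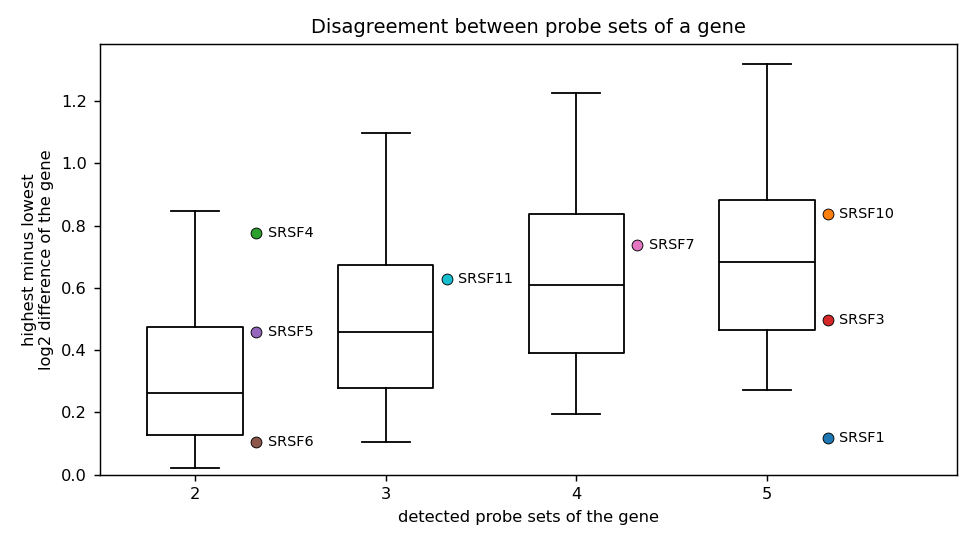
Highest minus lowest log2 difference among the detected probe sets of a gene (vertical axis), by the number of detected probe sets (horizontal axis). Boxes show the quartiles and median of all such genes, whiskers run from the 5th to the 95th percentile, and points are SR genes; SRSF1 at 0.12 lies below its whisker, and SRSF4 at 0.78 and SRSF10 at 0.84 lie inside theirs.

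In the RefSeq gene table, which held all 10 symbols, 5 of the 8 measured genes have at least 1 curated noncoding transcript: SRSF1, SRSF3, SRSF6, SRSF10 and SRSF11. Among 12189 detected protein-coding genes, 19.1% have one. The table does not say why a transcript is classed as noncoding. Curated coding transcripts numbered 1 for SRSF3, SRSF4 and SRSF6, 2 for SRSF1, 3 for SRSF7, 4 for SRSF5, 8 for SRSF10 and 21 for SRSF11. SRSF3, with 1 coding and 1 noncoding transcript, had probe sets on both sides of 0, as did SRSF11 with its 21. Pseudogenes named after the gene are listed for SRSF3 (5), SRSF6 (2), SRSF10 (2), SRSF1 (1) and SRSF11 (1). Whether any of these probe sets matches a pseudogene was not analysed here.

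Proteins that act on or beside SR proteins were read from lists of genes, with each gene at its brightest probe set. Their counts stand beside 42.4% of all detected genes lower, or 57.0% with array medians subtracted, where equal values count as lower. Of 12 kinases, phosphatases and the importer of SR proteins, 11 had a probe set with 1 symbol, and all 11 were detected. Of these, 5 were lower and 6 higher, with a median of 0.05, and 5 were lower with array medians subtracted. None reached 1.5-fold on its brightest probe set, a size that 5.79% of all detected genes reached. Of their 22 detected probe sets 1 did, against 7.66% of all detected probe sets. CLK2 and CLK1, nuclear kinases that release SR proteins from speckles, read lower: CLK2 6.35 and 6.04 (-0.31), CLK1 4.87 and 4.61 (-0.26). CLK4 read 4.47 and 4.67 (0.21). TNPO3, which imports phosphorylated SR proteins into the nucleus, had 0.22 on its brightest probe set, with 2 of its 3 detected probe sets higher and 1 equal.

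SR-related proteins, which carry arginine-serine stretches of their own, had a median of -0.09 over 24 detected genes, with 14 lower, 9 higher and 1 equal, and 17 lower with array medians subtracted. Of the family members outside the 10 symbols, SRSF8 read 6.52 and 6.59, but 2 of its 4 detected probe sets were lower and its median over probe sets was -0.10. SRSF12 read 3.76 and 3.53 (-0.23), with its other probe set at 0.11. Over all detected probe sets of the list, 5 of 78 reached 1.5-fold, against 7.66% of all detected probe sets. The lowest of the list was ACIN1, a component of a complex on spliced mRNA, at -0.79 on 1 probe set (3.86 and 3.07). It was the only member of the list at 1.5-fold on its brightest probe set, a size that 5.79% of all detected genes reached. THRAP3 followed at -0.44, with another of its probe sets at 0.55. The highest were TRA2B at 0.25, whose 2 other probe sets were lower, and SCAF8 at 0.14.

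The hnRNP proteins, many of which counter SR proteins at exons, were lower for 16 of 23 detected genes, higher for 6 and equal for 1, with a median of -0.05. With array medians subtracted 18 of the 23 were lower. HNRNPF had -0.63 on its 1 detected probe set (2.78 and 2.15), and HNRNPH3 had -0.25. HNRNPF was the only hnRNP gene at 1.5-fold on its brightest probe set, against 5.79% of all detected genes. Over all detected hnRNP probe sets, 6 of 65 reached that size, against 7.66% of all detected probe sets. PTBP2, the neural form of the polypyrimidine tract protein, had 0.22. HNRNPLL had 0.19, with another of its probe sets at 0.65. For the core spliceosome, 8 of 20 genes were lower and 12 higher, with a median of 0.06. With array medians subtracted 9 were lower. None of the 20 reached 1.5-fold, against the same 5.79% of all detected genes. SNRNP200, the helicase that unwinds U4 from U6, had -0.35, and SF3B1, which holds the branch point, -0.16 with 3 of its 5 probe sets higher. SF3B4 had 0.31 and SF3A1 0.30, the latter higher on all 4 probe sets.

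For mRNA export, 8 of 11 listed genes had a probe set with 1 symbol, and all 8 were detected. Of these, 4 were lower, 2 higher and 2 equal, with a median of -0.04. With array medians subtracted 7 were lower, the 2 equal genes among them. Without that scaling the 8 ran from THOC2 at -0.34 and THOC1 at -0.17 to THOC5 at 0.03 and NXT1 at 0.06. Of 10 listed nonsense-mediated decay factors, 6 had a probe set with 1 symbol, and all 6 were detected. Their median was 0.14, with 4 higher, 1 lower and 1 equal, and 2 were lower with array medians subtracted. UPF1, the helicase at the centre of this decay, read 3.59 and 3.58, with its other probe set at -0.31. SMG5 read 6.33 on both arrays, with its other probe set at -0.10. SMG8 had 0.28, and SMG6 had 0.32 at a level near detection (0.96 and 1.28). No export or decay gene reached 1.5-fold, a size that 5.79% of all detected genes reached on their brightest probe set. These lists rest on the same 2 arrays as the SR genes, and their differences from the SR genes were not tested.

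**Figure D5:**
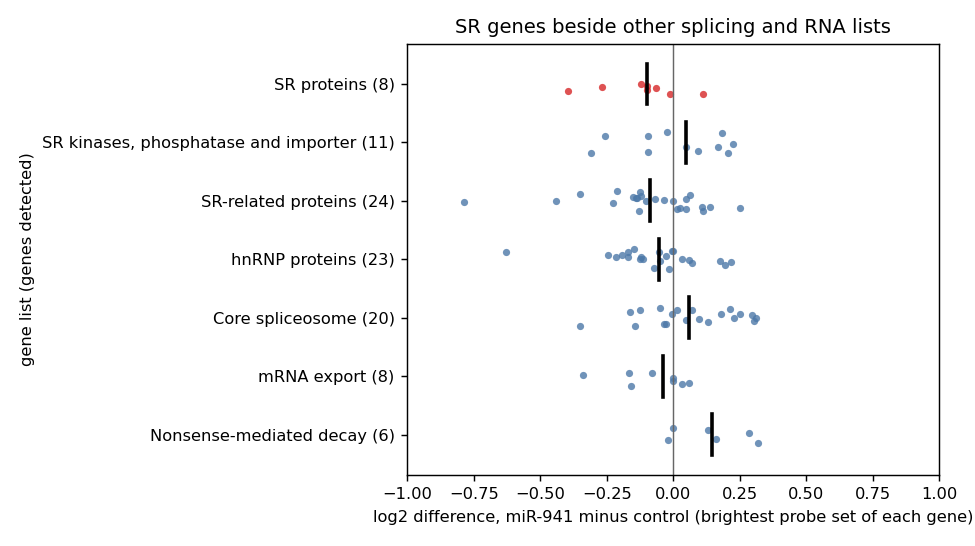
Log2 difference (miR-941 minus control, horizontal axis) of the brightest probe set of each detected gene, by list; each point is a gene, black bars are list medians, the number of genes is in brackets, and vertical scatter within a row has no meaning. SR genes, in red, have a median of -0.10 and run from -0.40 to 0.11; the 6 other lists plotted, which leave out the cell type markers, run from -0.79 (ACIN1) to 0.32 (SMG6).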

How the data were processed

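The deposited table holds 1 value per probe set and array. By the series' design text the authors used an RMA package of R, and the deposited values were taken as log2; their log base and any centring are not written in the sources used here. The submitters' processing notes also name affy and MAS5, with no version or role. The genome build behind the values is not given in the sources used here.

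Of 54675 probe sets, 41091 carried 1 gene symbol in the platform annotation, 1801 several, 11721 none there, and 62 were Affymetrix controls. Current symbols came from RefSeq (GRCh38.p14) by Entrez identifier. A gene was represented by its detected probe set with the highest mean of both arrays. Groups followed the transfected oligonucleotide. With 1 array per group no p-value is given, and the number of arrays limits the precision. The counting code was run on the real differences, shuffled among probe sets of like level, with known shifts added to some genes (Python 3.11.15, pandas 2.3.3, statsmodels 0.14.6). That run checks the arithmetic of the counts only. Named genes are the SR genes, SRSF8 and SRSF12, and the 2 highest and 2 lowest detected genes of each list. The members and lists were chosen with earlier results of these data known.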

Additional observations from a re-analysis of the deposited data

How the results depend on the processing

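Of the 8 alternatives, leaving out _s_at and _x_at probe sets changed most: 3 of 6 SR genes were then lower and 2 of 5 lay on both sides of 0. It removes 16 of the 28 detected probe sets. Above the 75th percentile of level, 0 of 25 SR probe sets differed by 1.5-fold or more, since SRSF4 242837_at falls below that level. The list median ran from -0.14 (array medians subtracted) to -0.0035 (without _s_at and _x_at), and the counts were within 1.5 times of those reported under all other alternatives run. Of 62 values of single genes under alternatives, 3 changed sign: SRSF10 (0.33) and SRSF7 (0.09) without _s_at and _x_at, and SRSF7 (0.04) by the median over probe sets. By that median SRSF4 moved from -0.10 to -0.49 and SRSF5 from -0.27 to -0.04. With 1 array a group, neither leaving out an array nor pairing was possible.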

Other observations

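The 5 probe sets that carry 2 gene symbols took no part in the comparison. The 3 annotated to MIR636 and SRSF2 together differed by -0.10, -0.09 and -0.05, and the 2 annotated to GATC and SRSF9 together by -0.31 and -0.15, on the log2 scale. All 5 were lower on the miR-941 array, but they stand for only 2 loci, and 43.4% of all detected probe sets with 1 symbol were lower, or 58.5% with array medians subtracted. The annotation does not assign them to either gene of the pair.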
